A study of Homo sapiens with 4 samples.

Results

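The genes of cholesterol and fatty acid synthesis were examined in 4 human acute myeloid leukemia cell lines by RNA sequencing. The 29 genes were taken by symbol from a list, and all 29 were found, each listed once, among the 21865 symbols of the deposited tables. All of them were measured, that is, they reached 1 RPKM (a transcript's abundance per kilobase of gene length and scaled to the library total) in at least 1 line, as did 12976 genes in all. The list was not chosen on its levels in these libraries, although earlier results of the same data were known when it was drawn up.

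The lines were HL60, a myeloblastic to promyelocytic line, KG1a, an immature CD34-positive line, and the monocytic lines MonoMac-1 and THP-1. MonoMac-1 and THP-1 are known to carry the MLL-AF9 fusion, which HL60 and KG1a lack; the labels do not say so. All were grown in one medium with fetal bovine serum, and the labels name no treatment or genetic change. The THP-1 sample is titled with an added "tr" of unstated meaning, and a treatment or modification of that culture cannot be told from the labels. Each line was 1 library, so no level below has a replicate error, and a difference between lines is a difference between 1 library of each. In bulk RNA, fewer cells that express a gene and less RNA per cell cannot be told apart.

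Cells make cholesterol and fatty acids from acetyl-CoA. The mevalonate pathway builds isoprene units that are joined to squalene and closed to sterols, and a separate route through malonyl-CoA yields saturated chains that are then elongated and desaturated. Transcription of both routes is driven by the sterol regulatory element-binding proteins, SREBP-1 and SREBP-2, which are held in the endoplasmic reticulum by SCAP and INSIG while sterols are plentiful and are released by proteolysis when sterols fall. Growing blood cells need both routes for membranes.

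The promoters of several members are shown first, because SREBPs act together with neighbouring factors at elements close to the start of transcription. Of the 29 members, 25 matched a RefSeq start (build GRCh38.p14), and 250 bases before the start farthest upstream were read. On both strands the windows were searched for CCAAT, the box bound by NF-Y, for CACNCCAC, the core of a sterol regulatory element, for GGGCGG, the GC box bound by SP1, and for CACGTG, the E-box. Matches of different motifs did not overlap in the members' windows (0 overlaps). CCAAT was found in 14 of 25 windows (56.0%), against 35.4% of the 8925 measured genes with a window and 33.0% of all 27305 symbols. CACNCCAC was found in 3 of 25 (12.0% against 4.74% of all), those of SREBF2, INSIG1 and SCD, and GGGCGG in 22 of 25 (88.0% against 66.6% of measured genes and 42.2% of all). CACGTG was found in 2 of 25, those of SCAP and INSIG1 (8% against 9.03% of measured genes and 6.46% of all). The median GC content of the windows was 67.2% for the members, 64.8% for measured genes and 57.6% for all. A match describes letters in a window and is not evidence of binding.

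The windows of 10 members are printed, the 8 with a window that stood at least 2-fold apart from all other lines in 1 line (HMGCS1, INSIG1, MVD, TM7SF2, FDPS, DHCR7, FADS2 and ELOVL6) and, besides INSIG1, the others with a CACNCCAC match (SREBF2 and SCD). Capitals mark CCAAT or its reverse complement ATTGG, and the longer capital runs mark CACNCCAC on either strand. The windows of DHCR7, FADS2 and ELOVL6 held neither and have no capitals. A window need not adjoin the start of the counted entry. That of FADS2 lies inside FADS1, below the window of FADS1 (chr11:61817004-61817253, minus strand). The counted FADS2 entry starts beyond the end of FADS1 (61595713 against 61584529, hg19). The printed FADS2 window therefore does not describe the sequence before the counted entry.
HMGCS1 (GRCh38.p14, chr5:43313413-43313662, minus strand): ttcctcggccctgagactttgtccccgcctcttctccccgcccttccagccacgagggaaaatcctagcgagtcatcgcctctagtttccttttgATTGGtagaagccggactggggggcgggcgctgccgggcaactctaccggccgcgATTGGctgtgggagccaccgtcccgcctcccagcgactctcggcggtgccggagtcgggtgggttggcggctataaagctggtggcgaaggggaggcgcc
INSIG1 (GRCh38.p14, chr7:155297628-155297877, plus strand): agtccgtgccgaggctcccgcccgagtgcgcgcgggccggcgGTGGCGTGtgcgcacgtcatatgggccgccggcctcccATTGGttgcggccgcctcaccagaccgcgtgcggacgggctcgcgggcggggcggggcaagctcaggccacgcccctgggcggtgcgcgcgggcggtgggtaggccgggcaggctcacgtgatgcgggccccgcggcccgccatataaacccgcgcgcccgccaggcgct
MVD (GRCh38.p14, chr16:88663092-88663341, minus strand): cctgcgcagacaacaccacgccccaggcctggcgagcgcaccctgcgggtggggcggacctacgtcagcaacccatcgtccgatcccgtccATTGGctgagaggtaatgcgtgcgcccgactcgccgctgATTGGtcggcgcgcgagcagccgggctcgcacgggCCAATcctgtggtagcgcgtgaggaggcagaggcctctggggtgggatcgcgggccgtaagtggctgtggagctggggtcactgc
TM7SF2 (GRCh38.p14, chr11:65111622-65111871, plus strand): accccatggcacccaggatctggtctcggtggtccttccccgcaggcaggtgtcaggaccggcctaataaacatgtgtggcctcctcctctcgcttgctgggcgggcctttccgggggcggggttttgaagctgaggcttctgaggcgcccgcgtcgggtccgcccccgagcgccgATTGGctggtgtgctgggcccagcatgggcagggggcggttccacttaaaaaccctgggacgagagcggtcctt
FDPS (GRCh38.p14, chr1:155308616-155308865, plus strand): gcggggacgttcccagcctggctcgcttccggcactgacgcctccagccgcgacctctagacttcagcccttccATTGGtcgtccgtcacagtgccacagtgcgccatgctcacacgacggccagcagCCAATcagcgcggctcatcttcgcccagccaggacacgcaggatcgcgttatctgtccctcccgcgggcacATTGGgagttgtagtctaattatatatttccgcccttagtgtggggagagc
DHCR7 (GRCh38.p14, chr11:71449044-71449293, minus strand): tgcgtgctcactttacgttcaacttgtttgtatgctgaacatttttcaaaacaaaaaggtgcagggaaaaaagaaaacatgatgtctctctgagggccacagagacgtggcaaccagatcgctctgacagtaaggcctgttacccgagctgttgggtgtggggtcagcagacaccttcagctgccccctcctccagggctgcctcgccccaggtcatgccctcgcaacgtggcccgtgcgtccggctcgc
FADS2 (GRCh38.p14, chr11:61815953-61816202, plus strand): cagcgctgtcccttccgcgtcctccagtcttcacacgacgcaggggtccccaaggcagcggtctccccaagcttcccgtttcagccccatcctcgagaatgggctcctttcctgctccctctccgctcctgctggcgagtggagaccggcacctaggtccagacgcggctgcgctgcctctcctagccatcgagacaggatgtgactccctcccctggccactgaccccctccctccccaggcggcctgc
ELOVL6 (GRCh38.p14, chr4:110198616-110198865, minus strand): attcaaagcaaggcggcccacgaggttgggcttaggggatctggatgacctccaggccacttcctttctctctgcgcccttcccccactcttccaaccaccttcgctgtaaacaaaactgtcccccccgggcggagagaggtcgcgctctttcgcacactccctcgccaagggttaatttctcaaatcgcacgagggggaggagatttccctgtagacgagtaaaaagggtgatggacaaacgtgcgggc
SREBF2 (GRCh38.p14, chr22:41832855-41833104, plus strand): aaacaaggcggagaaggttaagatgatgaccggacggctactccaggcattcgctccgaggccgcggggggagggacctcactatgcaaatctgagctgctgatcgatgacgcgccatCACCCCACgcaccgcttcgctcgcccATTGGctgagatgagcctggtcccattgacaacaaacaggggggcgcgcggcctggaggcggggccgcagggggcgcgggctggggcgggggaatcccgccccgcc
SCD (GRCh38.p14, chr10:100346983-100347232, plus strand): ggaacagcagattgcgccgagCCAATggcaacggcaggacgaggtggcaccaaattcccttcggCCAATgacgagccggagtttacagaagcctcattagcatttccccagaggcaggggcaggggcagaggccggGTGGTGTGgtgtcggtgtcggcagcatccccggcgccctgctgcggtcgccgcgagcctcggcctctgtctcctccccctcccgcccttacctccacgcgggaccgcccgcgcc

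The SREBF2 window held the core on the forward strand 132 bases before the start and CCAAT in reverse 106 bases before it. In INSIG1 the core lay in reverse 208 bases before the start with CCAAT in reverse at 170. MVD and FDPS each held 3 CCAAT matches and no core. Among the 14 members with CCAAT, HL60 had the highest level for 9 (23.1% of all measured genes), MonoMac-1 for 5 (24.9%) and KG1a for 0 (31.0%). Among the 11 without it HL60 was highest for 4, KG1a for 4 and MonoMac-1 for 3. THP-1 was the lowest line for 9 of these 11 and for 7 of the 14 (23.4%). KG1a was lowest for 1 of the 11 and 6 of the 14 (29.7%), and HL60 for 1 of each (26.2%). A link between the motif and the levels was not tested.

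Between 6.04 gigabases (THP-1) and 13.6 gigabases (MonoMac-1) of sequence lay on genes, and 10569 to 11346 genes reached 1 RPKM. The markers followed the known identities of the lines in part. Summed over the 8 monocyte markers, HL60 reached 18.7 RPKM and KG1a 5.14, against 1009 for THP-1 and 5274 for MonoMac-1. LYZ alone made up 4837 RPKM of the MonoMac-1 sum and 510 RPKM of the THP-1 sum. THP-1 was the highest line for 4 of the 8 markers and MonoMac-1 for the other 4. The median marker level was higher for THP-1 (44.1 RPKM) than for MonoMac-1 (23.6 RPKM). MPO, the myeloperoxidase of granulocyte precursors, stood at 4610 RPKM in HL60, and CD34 at 494 RPKM in KG1a. Of the 7 granulocyte markers, MPO, PRG2 and CLC were highest in HL60, but ELANE, AZU1, PRTN3 and CTSG, which encode proteins of primary granules, stood at 1042 to 2410 RPKM in THP-1 and MonoMac-1 and at 76.6 to 615 in HL60. The part of these differences between the lines in the levels below was not tested. Defining markers of fat and liver cells (ADIPOQ, PLIN1, ALB and CYP7A1) stayed under 1 RPKM in every library. Of 65 genes abundant in KG1a and nearly absent from THP-1 and MonoMac-1, 59 were read in HL60 at under 10% of their KG1a level. The median share of these 59 was 2.67%. The genes were chosen as nearly absent from THP-1 and MonoMac-1, so the count cannot set HL60 apart from those lines. No such share was taken for other pairs of lines, and its cause was not tested. Taking this share off HL60 lowered 28 of the members by 0.671% (HMGCS1) to 7.50% (SQLE), and ELOVL6 to 0. Size factors by the median of ratios lay between -0.04 (HL60) and 0.06 (MonoMac-1) in log2 units.

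The synthesis genes were abundant and broadly expressed. Of the 29 members, 28 reached 1 RPKM in all 4 lines (96.6%, against 70.8% of all measured genes), the exception being ELOVL6. The share was 96.2% for the 3709 genes with a mean of at least 20 RPKM, so the breadth of the members was that of abundant genes. The median member had a mean of 78.4 RPKM over the lines, against 9.34 RPKM for all measured genes. The highest line exceeded the lowest by a median of 1.496 on the log2(RPKM + 1) scale, or 2.82-fold, against 1.18 (2.27-fold) for all measured genes and 1.07 (2.10-fold) for the 3709 genes with a mean of at least 20 RPKM. Only 4 of 29 members (13.8%) lay within 2-fold across the lines (ACACA, SREBF2, SCAP and FADS1), against 38.9% of all measured genes and 45.7% of the 3709.

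HL60 and MonoMac-1 carried the high values, and THP-1 most of the low ones. HL60 was the highest line for 15 of 29 members (23.1% of all measured genes), MonoMac-1 for 10 (24.9%), KG1a for 4 (31.0%) and THP-1 for 0 (21.0%). THP-1 was the lowest line for 17 (23.4% of all measured genes), KG1a for 9 (29.7%), HL60 for 3 (26.2%) and MonoMac-1 for 0 (19.4%). MonoMac-1 ranked second for another 13 members. The median member level ran from 32.1 RPKM in THP-1 and 52.1 in KG1a to 73.5 in HL60 and 92.1 in MonoMac-1, while the median of all measured genes ran only from 7.74 RPKM (HL60) to 8.96 (MonoMac-1).

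**Figure D1:**
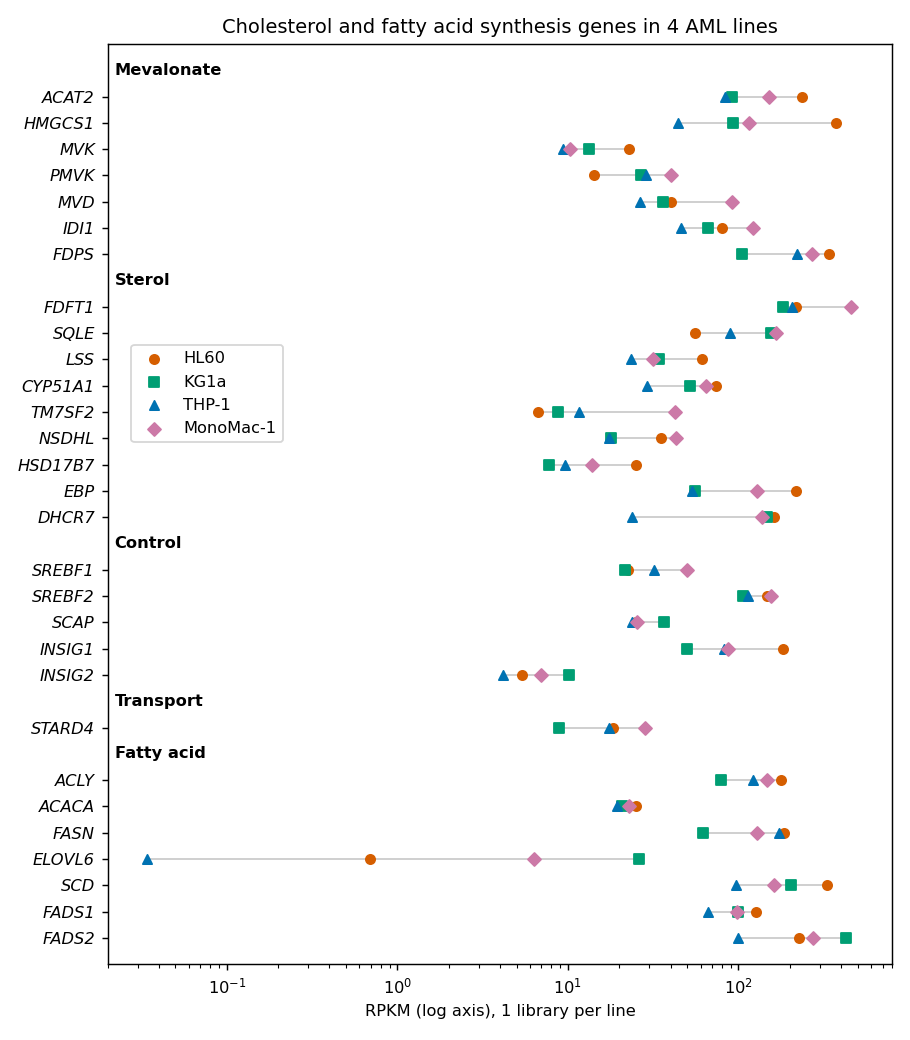
RPKM of each of the 29 genes (log axis) in the 4 lines, grouped by role, with 1 symbol for the single library of each line and a grey line from the lowest to the highest. THP-1 lies at the low end for 17 genes and at the high end for 0, and ELOVL6 has by far the widest span.

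**Figure D2:**
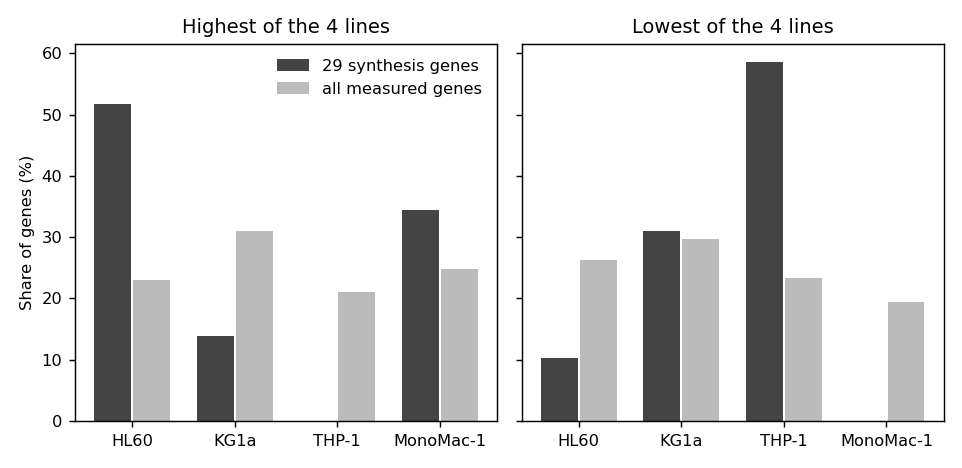
Share of genes (%) for which each line was the highest (left) or the lowest (right) of the 4, for the 29 synthesis genes and for all 12976 measured genes. HL60 is highest for 15 of the 29 genes, THP-1 lowest for 17, and the bars of THP-1 (highest) and MonoMac-1 (lowest) are at 0 for the synthesis genes.

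Most neighbouring levels of a member lay further apart than counting error. Taking 200 sequenced bases as 1 fragment, the 95% exact Poisson interval had a half-width of 0.657% to 10.2% of the level for 28 members, on 376 to 89272 fragment equivalents. These intervals cover counting error only. Of 87 neighbouring pairs of levels, 9 had overlapping intervals, among them 4 in which THP-1 was the lowest line (MVK, NSDHL, EBP and SCAP).

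The mevalonate enzymes turn acetyl-CoA into farnesyl diphosphate. HL60 was highest for 4 of these 7 (23.1% of all measured genes) and MonoMac-1 for 3 (24.9%). ACAT2, a cytosolic acetoacetyl-CoA thiolase at the entry to the pathway, stood at 237 RPKM in HL60, 151 in MonoMac-1, 91.7 in KG1a and 83.4 in THP-1. HMGCS1, which makes HMG-CoA from it (chromosome 5, 43289493 to 43313595, hg19), stood at 372 RPKM in HL60, 115 in MonoMac-1, 93.4 in KG1a and 44.3 in THP-1. HMGCS1 thus spanned 8.40-fold, the widest range of the cholesterol enzymes: HL60 was 3.23-fold above the next line and THP-1 2.11-fold below the third.

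The kinases and the decarboxylase that follow did not share one order. MVK, mevalonate kinase, stood at 22.8 RPKM in HL60, 10.3 in MonoMac-1, 13.3 in KG1a and 9.41 in THP-1. PMVK, phosphomevalonate kinase, was lowest in HL60, at 14.2 RPKM, and stood at 26.9 in KG1a, 40.0 in MonoMac-1 and 28.7 in THP-1. MVD, the decarboxylase that yields isopentenyl diphosphate (chromosome 16, 88718348 to 88729495), stood at 40.0 RPKM in HL60, 92.1 in MonoMac-1, 35.9 in KG1a and 26.4 in THP-1. MVK and PMVK differed in the place of HL60, the highest line for MVK and the lowest for PMVK, and MVD was 2.30-fold higher in MonoMac-1 than in the next line.

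IDI1, which isomerizes isopentenyl diphosphate, stood at 79.7 RPKM in HL60, 122 in MonoMac-1, 66.2 in KG1a and 45.9 in THP-1. FDPS, farnesyl diphosphate synthase (chromosome 1, 155278539 to 155290250), stood at 341 RPKM in HL60, 269 in MonoMac-1, 104 in KG1a and 219 in THP-1. FDPS was the 1 mevalonate gene for which KG1a was the lowest line, 2.10-fold below THP-1. Retrocopies of FDPS exist in the genome, and how the authors' counting treated reads shared with them is not given, so its level is uncertain.

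The sterol enzymes run from squalene synthase onward. Of these 9, 5 were highest in HL60 (23.1% of all measured genes) and 4 in MonoMac-1 (24.9%). FDFT1, squalene synthase, stood at 217 RPKM in HL60, 460 in MonoMac-1, 183 in KG1a and 207 in THP-1, so that 3 lines were close and MonoMac-1 was 2.12-fold above them. SQLE, squalene epoxidase, was at 55.6 RPKM in HL60, 166 in MonoMac-1, 156 in KG1a and 88.8 in THP-1. SQLE was thus lowest in the line that was highest for HMGCS1. LSS, which closes the ring to lanosterol, stood at 60.8 RPKM in HL60, 31.7 in MonoMac-1, 34.2 in KG1a and 23.3 in THP-1.

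Enzymes that trim lanosterol differed in which line led. CYP51A1, the lanosterol demethylase, stood at 73.5 RPKM in HL60, 64.5 in MonoMac-1, 52.1 in KG1a and 28.99 in THP-1. TM7SF2, a sterol reductase (chromosome 11, 64879341 to 64883707), stood at 6.72 RPKM in HL60, 42.2 in MonoMac-1, 8.79 in KG1a and 11.6 in THP-1. TM7SF2 was the second widest in span of the sterol enzymes (6.28-fold), and MonoMac-1 was 3.62-fold above the next line. NSDHL, a sterol dehydrogenase encoded on the X chromosome, stood at 35.0 RPKM in HL60, 42.8 in MonoMac-1, 17.9 in KG1a and 17.5 in THP-1. HSD17B7, a sterol ketoreductase, stood at 25.2 RPKM in HL60, 13.9 in MonoMac-1, 7.73 in KG1a and 9.56 in THP-1. NSDHL and HSD17B7 act in the same removal of methyl groups, and both were higher in HL60 and MonoMac-1 than in KG1a and THP-1.

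THP-1 was the lowest line for both of the last steps. EBP, the sterol isomerase, stood at 217 RPKM in HL60, 128 in MonoMac-1, 55.6 in KG1a and 53.4 in THP-1. DHCR7, the reductase that completes cholesterol (chromosome 11, 71145457 to 71159477), stood at 161 RPKM in HL60, 138 in MonoMac-1, 146 in KG1a and 23.7 in THP-1. THP-1 alone was low for DHCR7, 5.80-fold below the lowest of the other lines, while for EBP the counting intervals of THP-1 and KG1a overlapped. Over the 16 mevalonate and sterol genes, all 16 were lower in THP-1 than in MonoMac-1 (53.6% of all measured genes), with a median difference of -1.14 on the log2 scale.

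Among the regulators, SREBF2 and SCAP were nearly even across the lines. SREBF2, which encodes SREBP-2, the main activator of cholesterol genes (chromosome 22, 42229106 to 42302375), stood at 147 RPKM in HL60, 155 in MonoMac-1, 106 in KG1a and 114 in THP-1, a span of 1.46-fold. SCAP, the escort of SREBPs, stood at 24.9 RPKM in HL60, 25.5 in MonoMac-1, 36.7 in KG1a and 23.7 in THP-1. SREBF1, which encodes SREBP-1, the main activator of fatty acid genes, stood at 22.6 RPKM in HL60, 49.8 in MonoMac-1, 21.6 in KG1a and 32.1 in THP-1. THP-1, the lowest line for most enzymes, held the second rank for SREBF1 and the third for SREBF2. In each library SREBF2 exceeded SREBF1 per unit length, by 6.50-fold in HL60, 4.90-fold in KG1a, 3.56-fold in THP-1 and 3.10-fold in MonoMac-1.

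INSIG1 and INSIG2, the retention proteins that hold SCAP in the endoplasmic reticulum, ran in different orders. INSIG1, itself a target of SREBPs (chromosome 7, 155089486 to 155101945), stood at 183 RPKM in HL60, 86.6 in MonoMac-1, 50.1 in KG1a and 81.9 in THP-1. INSIG2 stood at 5.38 RPKM in HL60, 6.93 in MonoMac-1, 10.2 in KG1a and 4.18 in THP-1. KG1a was the lowest line for INSIG1 and the highest for INSIG2, and the ratio of INSIG1 to INSIG2 took the values 34.1 (HL60), 19.6 (THP-1), 12.5 (MonoMac-1) and 4.93 (KG1a). Such ratios are taken within a library and do not depend on how libraries are scaled to each other. STARD4, a carrier of free cholesterol between membranes, stood at 18.3 RPKM in HL60, 28.3 in MonoMac-1, 8.82 in KG1a and 17.5 in THP-1, lowest in KG1a as INSIG1 was.

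**Figure D3:**
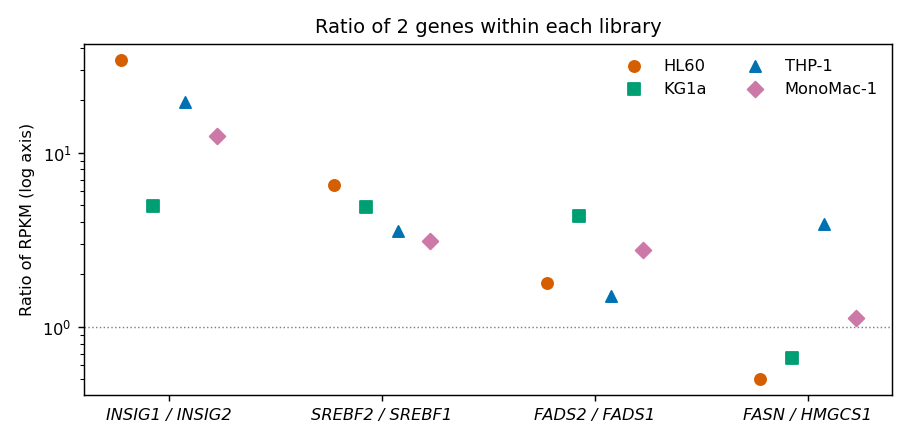
Ratio of the RPKM of 2 genes within each library (log axis) for 4 pairs, with 1 symbol per line. INSIG1 exceeds INSIG2 by 34.1-fold in HL60 and 4.93-fold in KG1a, and FASN exceeds HMGCS1 in THP-1 (3.89) but not in HL60 (0.5005).

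The fatty acid genes were highest in HL60 for 5 of 7 (23.1% of all measured genes). KG1a was highest for the remaining 2, FADS2 and ELOVL6 (31.0%). ACLY, which makes cytosolic acetyl-CoA from citrate, stood at 177 RPKM in HL60, 147 in MonoMac-1, 78.9 in KG1a and 122 in THP-1. ACACA, the carboxylase that commits acetyl-CoA to chain synthesis, was the most even member, at 25.03 RPKM in HL60, 22.9 in MonoMac-1, 20.7 in KG1a and 19.5 in THP-1. FASN, fatty acid synthase (chromosome 17, 80036214 to 80056106), stood at 186 RPKM in HL60, 129 in MonoMac-1, 61.8 in KG1a and 172 in THP-1. FASN was the 1 member that was lower in MonoMac-1 than in THP-1. The ratio of FASN to HMGCS1 was 3.89 in THP-1 against 1.12 in MonoMac-1, 0.662 in KG1a and 0.5005 in HL60. This is 1 pair of genes: the median distance of THP-1 from the gene means on the log2 scale was -0.52 over the 7 fatty acid genes and -0.57 over the 16 mevalonate and sterol genes.

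Of the modifying enzymes of fatty acids, SCD and FADS1 were highest in HL60, and FADS2 and ELOVL6 in KG1a. SCD, the desaturase that makes oleate, stood at 331 RPKM in HL60, 162 in MonoMac-1, 204 in KG1a and 97.2 in THP-1. FADS1, a desaturase of polyunsaturated chains, stood at 127 RPKM in HL60, 98.7 in MonoMac-1, 99.7 in KG1a and 66.3 in THP-1. FADS2, which starts that desaturation (chromosome 11, 61595713 to 61634825), stood at 225 RPKM in HL60, 273 in MonoMac-1, 429 in KG1a and 99.6 in THP-1. FADS2 and FADS1 are neighbours on chromosome 11, yet FADS2 exceeded FADS1 by 4.302-fold in KG1a, 2.76-fold in MonoMac-1, 1.78-fold in HL60 and 1.502-fold in THP-1.

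ELOVL6, which elongates palmitate (chromosome 4, 110970229 to 111119820), had the widest span of all members. It stood at 26.2 RPKM in KG1a (95% counting interval 25.6 to 27.0), 6.30 in MonoMac-1 (5.999 to 6.605), 0.692 in HL60 (0.571 to 0.830) and 0.0339 in THP-1 (0.00924 to 0.0868), the last on 4 fragment equivalents. KG1a was 4.17-fold above MonoMac-1. The HL60 level was at the share of KG1a levels read in HL60 (2.67%), and 0 was left after its removal, so ELOVL6 was not detectable in HL60 beyond that share. FASN, which makes the substrate of ELOVL6, was at its lowest in KG1a, where ELOVL6 was at its highest.

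By a margin of at least 2-fold over or under all other lines, on the log2(RPKM + 1) scale, few members stood apart. HL60 was above for 2 (HMGCS1 and INSIG1; 2.17% of all measured genes) and below for 0 (3.87%). KG1a was above for 1 (ELOVL6; 7.92%) and below for 2 (FDPS and FASN; 5.66%), THP-1 was above for 0 (3.62%) and below for 3 (HMGCS1, DHCR7 and FADS2; 1.60%), and MonoMac-1 was above for 3 (MVD, FDFT1 and TM7SF2; 3.63%) and below for 0 (0.886%). The low position of THP-1 therefore came from margins between near ties and large gaps. Where THP-1 was lowest, the ratio of the third line to it ran from 1.02 (NSDHL) to 5.80 (DHCR7), with 20.4 for ELOVL6 on 4 fragment equivalents. With a pseudocount of 0.1 the count below the other lines in THP-1 was 4 instead of 3.

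Line against line, the largest median shifts of the list lay between THP-1 and the lines HL60 and MonoMac-1. HL60 exceeded THP-1 for 25 of 29 members (49.2% of all measured genes), and by at least 2-fold for 11 (10.6%) with 0 at least 2-fold lower (16.3%). The median of these differences was 0.71 in log2 units, against -0.01 for all measured genes. THP-1 was below MonoMac-1 for 28 of 29 (53.6%), by at least 2-fold for 11 (9.68%) with 0 above by that margin (7.65%), and a median of -0.66 against -0.04. These lines share the MLL-AF9 fusion and are both known as monocytic. Each is 1 library, the THP-1 title carries the unexplained "tr", and the cause of the difference was not tested. KG1a was below MonoMac-1 for 20 of 29 (52.0%), by at least 2-fold for 9 (17.3%) and above by that margin for 1 (14.8%), with a median of -0.56 against -0.03.

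The medians of the remaining pairs of lines were nearer 0. HL60 exceeded KG1a for 22 of 29 members (48.0%), by at least 2-fold for 8 (13.1%) with 2 lower by that margin (17.9%), and a median of 0.47 against -0.02. KG1a and THP-1 differed by a median of 0.14 against 0.02, with 6 members at least 2-fold higher in KG1a (16.1%) and 2 lower (16.5%). HL60 and MonoMac-1 differed by 0.12 against -0.05, with 4 members at least 2-fold higher in HL60 (8.25%) and 7 lower (17.0%). Counted in both directions, 11 members thus lay at least 2-fold apart between HL60 and MonoMac-1, as many as between THP-1 and either of them. These comparisons share libraries, so they are not independent of one another, and with 1 library per line they have no test.

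**Figure D4:**
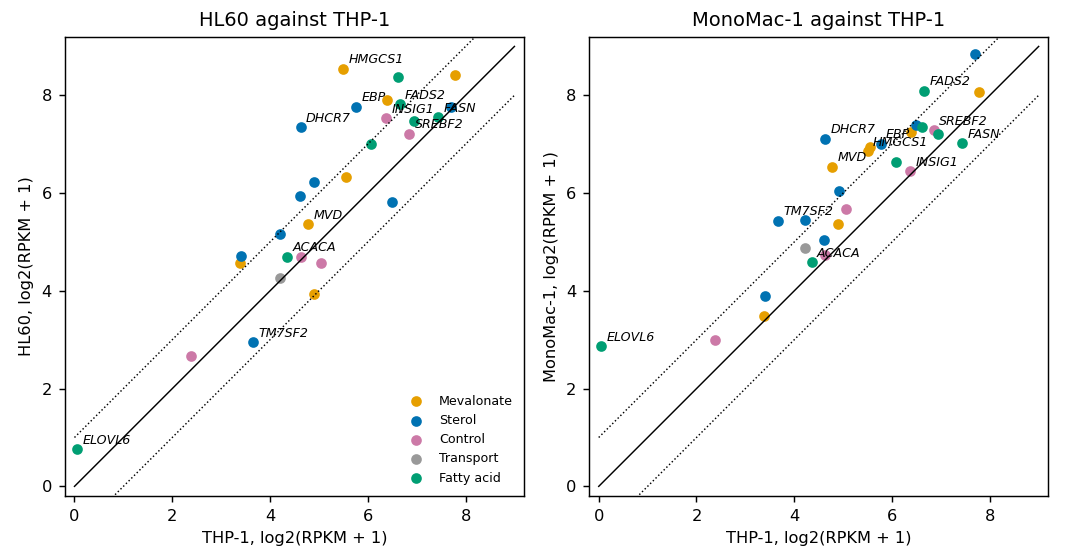
Levels of the 29 genes, as log2(RPKM + 1), in HL60 (left) and MonoMac-1 (right) against THP-1, coloured by role, with 1 library per axis. The solid line marks equal levels and the dotted lines a 2-fold difference; 25 genes lie above equality in HL60 and 28 in MonoMac-1, and 0 lie beyond the lower dotted line in either panel.

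The monocytic MLL-AF9 lines were then set against HL60 and KG1a, to ask whether the list differs between lines with and without the fusion. Of 29 members, 3 had both MLL-AF9 values above both other values (PMVK, TM7SF2 and SREBF1; 22.1% of all measured genes), 5 were lower (MVK, LSS, DHCR7, SCD and FADS1; 19.6%) and 21 overlapped. At a gap of at least 2-fold there were 0 higher (4.38%) and 0 lower (1.58%). The counts changed with the lines that entered, with 11 higher and 9 lower when HL60 was left out, 4 and 15 when KG1a was, 3 and 17 when MonoMac-1 was, and 10 and 5 when THP-1 was. With 1 line on a side any gene separates more easily. The shares above therefore do not apply to those counts, and the shares over all measured genes were not counted for them. The median difference of the list was -0.19 on the log2 scale against 0.02 for all measured genes. With limma, fitted over all 12976 genes with the line as the unit, 0 members and 0 genes passed the Benjamini-Hochberg threshold of 0.05, and at an unadjusted p under 0.05 there were 0 members and 8.55% of all genes. The lowest adjusted p among the members in limma was 0.642, for SREBF1 (0.83 on the log2 scale, SE 0.37, 2 of 2 lines higher) and SCD (-1.04, SE 0.47, 2 of 2 lines lower). The p-values measure the spread between different lines, not between cultures of a line, and with 2 lines a side a lack of calls does not show that levels were equal.

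Other genes of the pathways came from lists not picked for how they moved, although earlier results of the same data were known. They held 58 measured genes, of which 54 reached 5 RPKM in some line. Of these 54, 18 stood at least 2-fold apart from the other lines in 1 line (33.3%, against 27.6% of all genes reaching 5 RPKM). The 4 others of the sterol route, SC4MOL (MSMO1) and SC5DL (SC5D), enzymes of the late steps, LBR and C14orf1 (ERG28), held 0 such genes. HL60 was the highest line for 2 of these 4, SC4MOL and LBR (23.1% of all measured genes). KG1a was highest for C14orf1 (31.0%) and MonoMac-1 for SC5DL (24.9%). SC4MOL stood at 60.5 RPKM in HL60, 35.96 in MonoMac-1, 14.1 in KG1a and 26.4 in THP-1. Of 8 genes of the prenyl branch, which uses farnesyl diphosphate for other products, HL60 was lowest for 5 (26.2% of all measured genes). FNTA, the shared subunit of the prenyltransferases, stood at 16.3 RPKM in HL60 against 42.3 in KG1a, 47.2 in MonoMac-1 and 52.0 in THP-1.

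Among 8 genes of SREBP cleavage and of sterol-dependent protein degradation, HL60 was at least 2-fold below the other lines for 2 (3.87% of all measured genes). ERLIN2, a membrane protein of the degradation machinery, stood at 5.59 RPKM in HL60 against 36.8 in KG1a, 37.6 in MonoMac-1 and 36.5 in THP-1. RNF139, a ubiquitin ligase of the endoplasmic reticulum, stood at 5.94 RPKM in HL60, 25.3 in MonoMac-1, 29.02 in KG1a and 18.1 in THP-1. MBTPS2, a protease that releases SREBPs, was even, at 6.77 RPKM in HL60, 6.32 in MonoMac-1, 5.23 in KG1a and 5.97 in THP-1.

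Further fatty acid genes were lowest in KG1a for 13 of 21 measured (29.7% of all measured genes), and at least 2-fold below the other lines for 5 (5.66%). ACSS2, which makes acetyl-CoA from acetate, stood at 5.29 RPKM in KG1a against 32.7 in HL60, 40.7 in MonoMac-1 and 15.3 in THP-1. ME1, the cytosolic malic enzyme that supplies NADPH, stood at 0.170 RPKM in KG1a against 12.3 (HL60), 6.13 (MonoMac-1) and 7.02 (THP-1). ACACB, the carboxylase tied to mitochondria, stood at 0.0369 RPKM in KG1a against 2.62 (HL60), 2.30 (MonoMac-1) and 6.12 (THP-1). MID1IP1, which promotes polymerization of the carboxylases, stood at 13.0 RPKM in KG1a against 36.5 (HL60), 47.3 (MonoMac-1) and 37.9 (THP-1). KG1a was at least 2-fold above for 3 (7.92%), which included the elongase ELOVL7 (5.49 RPKM against 0.306 in HL60, 0.0763 in MonoMac-1 and 0.331 in THP-1) and ACSL5, an acyl-CoA synthetase (41.9 against 16.3 in HL60, 10.7 in MonoMac-1 and 11.4 in THP-1). PTPLA (HACD1), a dehydratase of chain elongation, was low in HL60 (0.449 RPKM against 11.4 in KG1a, 21.3 in MonoMac-1 and 2.98 in THP-1), and PTPLAD1 (HACD3) was low in THP-1 (15.1 against 44.4 in HL60, 33.9 in KG1a and 34.0 in MonoMac-1).

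Genes of sterol export and storage were led by different lines. Of 10 genes of the liver X receptors and their export targets, MonoMac-1 was highest for 5 (24.9% of all measured genes), and of 7 genes of storage and traffic, KG1a was highest for 5 (31.0%). THP-1 was lowest for 3 of the 10 and 3 of the 7 (23.4%). NPC1, which moves cholesterol out of lysosomes together with NPC2, was highest in HL60 and lowest in THP-1, at 19.2 RPKM in HL60, 15.5 in MonoMac-1, 10.4 in KG1a and 7.21 in THP-1. NR1H2, a liver X receptor, was likewise highest in HL60 (30.2 RPKM) and lowest in THP-1 (14.2), and LPCAT3, an enzyme that remodels phospholipids, was highest in MonoMac-1 (51.8 RPKM) and lowest in THP-1 (16.0). ABCA1, the exporter of cholesterol to apolipoproteins, stood at 14.999 RPKM in THP-1 against 0.927 in HL60, 0.447 in KG1a and 0.991 in MonoMac-1. THP-1 was the highest line for 2 of the 10 genes (21.0% of all measured genes). A link between export and synthesis genes was not tested. ABCG1, another exporter, stood at 18.0 RPKM in KG1a and under 1 in the other lines. PLTP, a phospholipid transfer protein, ranged from 0.00501 RPKM in KG1a and 8.65 in HL60 to 107 in MonoMac-1 and 21.7 in THP-1. NR1H3, another liver X receptor, a sensor of oxysterols, stood at 8.93 RPKM in MonoMac-1 and 8.73 in THP-1, with 3.42 in KG1a and 2.62 in HL60 (limma adjusted p = 0.514, 2 of 2 lines higher, 1.30 on the log2 scale). SOAT1, which esterifies cholesterol for storage, stood at 5.10 RPKM in HL60 against 12.0 in KG1a, 25.4 in MonoMac-1 and 15.4 in THP-1. NPC2, which moves cholesterol out of lysosomes, stood at 26.2 RPKM in HL60, 111 in MonoMac-1, 114 in KG1a and 68.2 in THP-1. OSBP, a sterol carrier, was highest in KG1a, at 49.2 RPKM against 23.0 in HL60, 18.7 in MonoMac-1 and 17.5 in THP-1.

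Several members share their place with another listed entry, and strand use in the authors' counting is not given. These were ACAT2, IDI1, SREBF1, SREBF2, ACACA and FADS1. The overlapping entries stood at no more than 2.77 RPKM (IDI2-AS1 in MonoMac-1, beside 122 RPKM for IDI1).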

How the data were processed

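RNA of 4 leukemia lines was sequenced, 1 library each. Per the submitters' processing notes, CASAVA 1.8.2 and the hg19 build were used; the aligner is not given in the sources used here, nor are annotation, strand handling and filters. The authors deposited, for each of 21893 entries, an RPKM and a whole-number coverage signal without a stated unit. The deposited signal was read from its values as sequenced bases on the gene (commonest low value 200), and it served only for depth and counting intervals; in MonoMac-1 only 10.0% of low values were multiples of 100, so fragment equivalents there are approximate. Neither value is a count of reads, so no count model was used. Tables were joined by symbol and coordinates, and for 28 repeated symbols the entry with the highest mean was kept.

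Differences and folds between lines that are counted are on the log2(RPKM + 1) scale, which understates changes of low genes; folds given for single genes are ratios of RPKM. limma 3.58.1 (R 4.3.3, lmFit, eBayes with trend, two-sided) had 2 residual degrees of freedom and was tested on simulated data. Members and lists were chosen with earlier results of these data known. All members are named; other pathway genes are named when at least 2-fold apart from the other 3 lines in 1 line and reaching 5 RPKM (1 of them is not reported here), and SC4MOL, MBTPS2, NR1H3, NPC1, NR1H2 and LPCAT3 were added after their values were seen. Promoter windows came from RefSeq (GRCh38.p14), a build other than that of the files, and were matched by symbol only. The alternatives changed the pseudocount, the filter, the scaling, the HL60 values, repeated symbols, the fold and the lines included.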

Additional observations from a re-analysis of the deposited data

How the results depend on the processing

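No paired analysis was possible because each line is 1 library and the labels carry no replicate numbers. Changing the pseudocount, the filter, the scaling, the HL60 values or the treatment of repeated symbols left 55 of 56 counts of members highest or lowest in a line within 1.5 times the values given (an alternative chosen after seeing the data); the exception was MonoMac-1 under quantile normalization, lowest for 1 member instead of 0. Of 42 median differences between lines, 40 stayed within 1.5 times; that of HL60 minus MonoMac-1 moved from 0.12 to 0.22 with median-of-ratios scaling and to 0.23 with quantile normalization.

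The counts at a margin over all other lines depend on the fold, and the shares over all measured genes were counted at 2-fold only. At 1.5-fold HL60 was above for 8 and below for 2, KG1a above for 2 and below for 5, THP-1 below for 6 and MonoMac-1 above for 6. At 3-fold HL60 was above for 1, KG1a below for 0, THP-1 below for 1 and MonoMac-1 above for 1. Under quantile normalization KG1a was above for 2 and below for 1.

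The counts for the MLL-AF9 lines against the others changed with the lines that entered. With 1 line on a side any gene separates more easily, so part of a rise in these counts comes from the smaller comparison. Leaving out 1 line at a time, between 3 (without MonoMac-1) and 11 (without HL60) members were higher in the MLL-AF9 side by any margin and between 5 (without THP-1) and 17 (without MonoMac-1) lower, and at 2-fold between 0 and 4 were higher (4 without THP-1) and between 0 and 4 lower (4 without KG1a or MonoMac-1). With genes of at least 5 RPKM limma called 10 genes higher and 1 lower, 0 of them members. In all 12 fits 0 members were called. Depth limited ELOVL6 in THP-1, and the missing replicates limit every difference between lines.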
